A study of Homo sapiens with 6 samples.

Results

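Isolated Brpf2 peaks are sites of Brpf2 occupancy that stand far from any other site: peaks of the deposited list with a neighbouring peak on both sides and at least 300 kb of sequence without a peak, edge to edge, on each side. They were sought on chromosomes 1 to 22 except 4, 13 and 18, which makes 19 chromosomes. The rule found 530 isolated peaks among the 10712 peaks on these chromosomes, or 4.95% (exact 95% interval 4.55 to 5.38%), and the whole list held 11874 peaks. Positions chose the members, so the gaps given below describe them and are not a finding. Width and score played no part in the choice.

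The peaks come from chromatin immunoprecipitation followed by sequencing (ChIP-seq) of Brpf2 in untreated RKO cells, a line established from a human colon carcinoma and grown normally. The series holds 6 samples, 1 each for Brpf2, ING2, ING5, the histone mark H3K4me3, histone H3 and rabbit IgG, and the peak list of the Brpf2 sample was used. The other 5 samples were not analysed here. With 1 library of 1 cell line and no replicate there is no test between samples, and all values below describe how peaks differ within that library.

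Brpf2, also called BRD1, is a scaffold protein of MYST acetyltransferase complexes. It holds the catalytic subunit together with small subunits such as ING5, and it carries PHD fingers, a bromodomain and a PWWP domain, which are modules that contact histones or nucleosomal DNA. The complexes acetylate histone tails and are best known at the start sites of active genes. Such start sites lie close together in gene-rich sequence and far apart in gene-poor sequence.

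The score is the value that the authors' peak caller gave to each peak. It runs from 50 to 3233.06 in the list and its scale is not stated, so it was used only to rank peaks within the list. Scores pile up at exactly 3100, and a peak at or above this value is said to be at the ceiling, where the score does not rank peaks finely. The read depth is unknown. Intervals are exact 95% intervals (Clopper-Pearson for shares, order statistics for medians) and cover counting error only. Neighbouring peaks are not independent, so these intervals are too narrow.

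The peaks compared with them came from the same chromosomes. Crowded peaks, 2557 in number, have both gaps below 50 kb. One-sided peaks, 816 in number, have a gap of 300 kb or more on 1 side and below 50 kb on the other, so they sit at the rim of a stretch without peaks.

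By the rule, isolated peaks had long gaps on both sides, and 282 of the 530 had a smaller gap of 300 to 500 kb. Their smaller gap had a median of 477 kb (quartiles 361 and 701 kb) and reached 3.73 Mb, and their larger gap had a median of 1.10 Mb. For 248 of them both gaps were 500 kb or more, for 64 both were 1 Mb or more, and for 8 both were 2 Mb or more. By comparison, the median gap between neighbouring peaks on the 19 chromosomes was 65.5 kb. Of 10693 gaps on these chromosomes, 1663 were 300 kb or longer. They made up 71.2% of the sequence between the first and last peaks, and 2792 peaks bordered at least 1 of them. Which parts of these stretches could be aligned to was not examined.

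**Figure D1:**
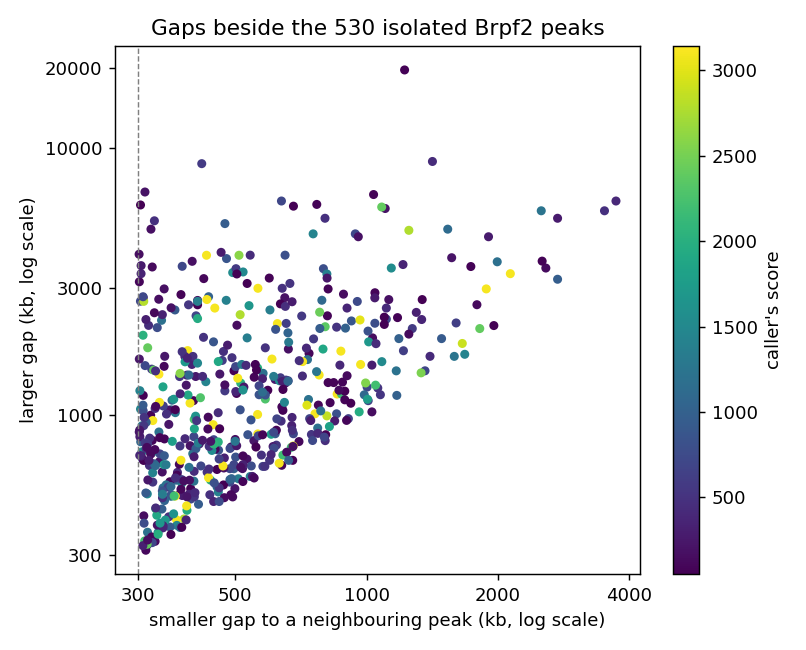
The smaller gap (x axis, kb, log scale) is plotted against the larger gap (y axis, kb, log scale) for each of the 530 isolated peaks, coloured by the caller's score. Points begin at the 300 kb limit (dashed line), and most larger gaps lie between 0.3 and 3 Mb. High and low scores both occur at smaller gaps up to about 2 Mb, and only 8 peaks lie beyond.

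Some isolated peaks followed each other along the chromosome, which the rule favours because neighbouring peaks share a gap. Of the 530, 302 stood in runs of 2 to 5 successive isolated peaks and 228 had no isolated peak beside them. The runs of 5 numbered 4, on chromosomes 2, 3, 7 and 20, and each spanned between 3.14 and 3.49 Mb. The run on chromosome 2 began at 179836334 and ended at 183290844. Its 5 peaks scored 834, 671, 637, 1829 and 480 in order of position, and were between 1422 and 2751 bp wide. The run on chromosome 7, from 17945047 to 21435211, mixed scores of 688, 836 and 530 with weaker peaks of 89.85 and 170.5. The run on chromosome 3 spanned 64645895 to 67788543 with scores from 603 to 1573, and that on chromosome 20 spanned 49817086 to 53125084 with scores from 124 to 1337. Each run thus held peaks of unequal score. Peaks in runs had a median score of 542 (480 to 688) and those with no isolated neighbour 586 (479 to 722), and these intervals overlap.

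Isolated, crowded and one-sided peaks had similar median scores. That of the isolated peaks was 567 (499 to 678), that of the crowded peaks 557 (519 to 601) and that of the one-sided peaks 547 (478 to 626). The difference between isolated and crowded medians was 10.1, with an interval from -70.4 to 127 that holds 0. All other peaks with both neighbours had a median of 624, and the isolated median differed from it by -56.8 (interval -127 to 55.8). The lower quartiles, 223 for isolated and 206 for crowded peaks, were also close. Scores below 100, the weak end of the list, were held by 64 isolated peaks (12.1%, interval 9.42 to 15.2%) and by 11.97% of crowded peaks, against 10.2% of all peaks on the 19 chromosomes. Set beside all peaks, 26.8% of the isolated peaks lay below the lower quartile of score and 20.9% (17.6 to 24.7%) at or above the upper quartile. These shares were 28.4% and 24.0% (22.4 to 25.7%) for crowded peaks, and 27.5% and 22.1% (19.3 to 25.1%) for one-sided peaks. The groups were thus similar in this respect.

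The groups parted at the top of the scale. The ceiling was reached by 30 isolated peaks, or 5.66% (3.85 to 7.98%), against 8.43% of all peaks on the 19 chromosomes. Of the crowded peaks 245 reached it, or 9.58% (8.47 to 10.8%), and of the one-sided peaks 71, or 8.70% (6.86 to 10.8%). The isolated share was lower than the crowded share by 3.92 percentage points, with an interval for the difference from -6.10 to -1.35. Its difference from the one-sided share was -3.04 points (interval -5.85 to -0.0762), and the median widths of these 2 groups were close. From all other peaks with both neighbours it was -2.93 points (-4.82 to -0.543). The difference from crowded peaks was smaller once the mix of widths was matched, as given below, though the comparison within width classes was imprecise. It was -5.89 points when crowded peaks were limited to gaps below 25 kb, and -3.53 points with an interval from -6.42 to 0.36 when isolated gaps were 500 kb or more.

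Isolated peaks were on the whole somewhat narrower. Their median width was 2241.5 bp (2127 to 2350 bp), with a range from 480 to 9444 bp. Crowded peaks had a median of 2398 bp (2349 to 2443 bp), and one-sided peaks one of 2253 bp (2161 to 2346 bp), which differed from the isolated median by less than either interval. The isolated median lay below the crowded one (difference -156.5 bp, interval -280 to -37.4 bp). This small shift depended on the limits used: with isolated gaps of 200 kb or more the difference was -94 bp with an interval from -190 to 12 bp, and on chromosomes 4, 13 and 18 it had the opposite sign.

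**Figure D2:**
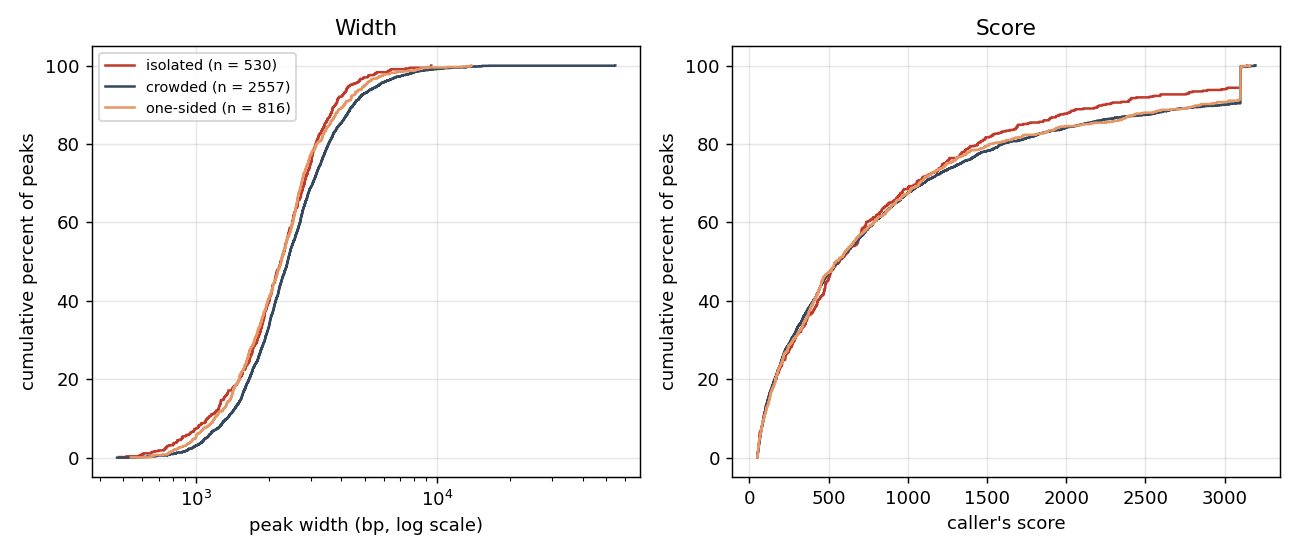
Cumulative percent of peaks (y axis) by width in bp (left, log scale) and by the caller's score (right) for the 530 isolated, 2557 crowded and 816 one-sided peaks. The width curve of the isolated peaks lies to the left of the crowded curve over most of the range, and the score curves run together up to about 1000 and part below 3100, where 94.3% of isolated peaks lie.

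Isolated and crowded peaks differed in both tails of the width distribution. Broad peaks of 5 kb or more numbered 16 among the isolated peaks, or 3.02% (1.74 to 4.86%), against 7.04% (6.08 to 8.10%) of crowded peaks and 4.71% of all peaks. No isolated peak reached 10 kb. Narrow peaks of under 1 kb numbered 39, or 7.36% (5.28 to 9.92%), against 3.13% (2.49 to 3.88%) of crowded peaks and 3.87% of all peaks. The differences were -4.02 points (interval -5.69 to -1.95) for broad peaks and 4.23 points (2.02 to 6.87) for narrow ones. One-sided peaks lay between, with 5.02% broad and 5.15% narrow peaks, and the differences of the isolated peaks from them, -2.01 (-4.16 to 0.301) and 2.21 points (-0.500 to 5.14), have intervals that hold 0. The excess of narrow peaks over the crowded share was larger, 8.16 points, with isolated gaps of 500 kb or more. It was 1.29 points (0.213 to 2.87) when peaks with scores below 100 were removed before the gaps were measured. Narrow peaks had median scores of 64.7 (isolated) and 67.0 (crowded). This filter therefore removes most narrow peaks of both groups and leaves little room for a difference.

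Within the isolated peaks, high scores went with large widths, as in the list as a whole. Spearman's rho was 0.81 over the 530 isolated peaks and 0.79 over the 2557 crowded peaks. Score and width are outputs of 1 caller on 1 library, so this is a description with no p-value. All 39 isolated peaks under 1 kb scored 256.04 or less, with a median of 64.7. The 14 broad peaks at the ceiling and the 15 ceiling peaks of 3 to 5 kb made up all but 1 of the 30 at the ceiling.

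At a given width, isolated peaks of 1 to 5 kb had median scores above those of crowded peaks, though mostly within the intervals. Among peaks of 1 to 2 kb, the median score was 229 (194 to 292) for 171 isolated peaks and 185 (173 to 198) for 767 crowded peaks, a difference of 43.6 (interval 6.46 to 108). Among peaks of 2 to 3 kb it was 693 (603 to 775) for 189 isolated and 598 (561 to 649) for 921 crowded peaks, a difference of 95.1 whose interval, -8.64 to 185, holds 0. In the class of 3 to 5 kb the medians were 1596 for 115 isolated and 1461 for 609 crowded peaks, again with an interval for the difference that holds 0 (-143 to 336). Under 1 kb both medians were near the bottom of the scale, 64.7 and 67.0.

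Within width classes the difference in the share at the ceiling went in opposite directions and was imprecise. Of peaks of 3 to 5 kb, 15 of 115 isolated (13.04%, 7.49 to 20.6%) and 111 of 609 crowded peaks (18.2%, 15.2 to 21.5%) were at the ceiling. Of peaks of 5 kb or more it was 14 of 16 isolated (87.5%, 61.7 to 98.4%) and 125 of 180 crowded peaks (69.4%, 62.2 to 76.1%). The differences were -5.18 points (interval -11.6 to 2.94) and 18.1 points (-8.63 to 31.2), and both intervals hold 0. For peaks of 2 to 3 kb the difference was -0.448 points. With crowded peaks weighted to the width classes of the isolated peaks, the crowded share at the ceiling was 6.40%. The difference was then -0.739 points, in place of -3.92. This value has no interval, and the weighting was chosen after seeing the data. Whether the mix of widths accounts for the difference was not tested. The same weighting gave a difference in median score of 111 in place of 10.1. Below 2 kb no isolated and no crowded peak was at the ceiling. For the 171 isolated peaks of 1 to 2 kb, the exact interval of this 0 reaches 2.13%, and 3 counts would be 1.75%.

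**Figure D3:**
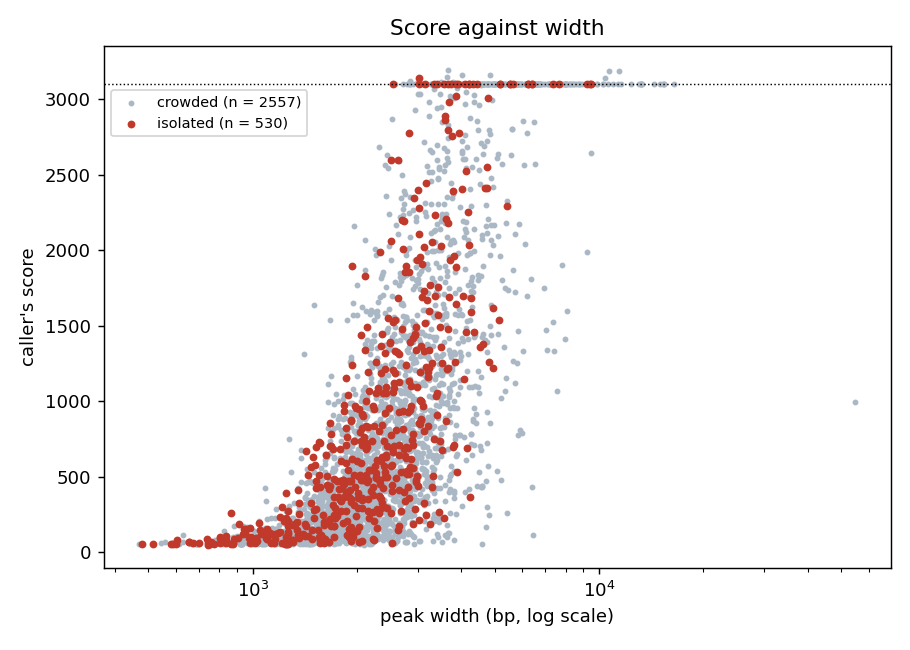
The caller's score (y axis) is plotted against peak width in bp (x axis, log scale) for the 530 isolated peaks over the 2557 crowded peaks. The dotted line marks 3100, where 30 isolated peaks lie at or above it, and the widest crowded peaks reach beyond the 9444 bp of the widest isolated one.

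The change with distance was not a steady one. For all peaks with both neighbours on the 19 chromosomes, the median score was 506 (465 to 548) where the smaller gap was under 10 kb, and it was highest at intermediate distances. It was 725 (677 to 765) at 50 to 100 kb and 721 (666 to 766) at 100 to 300 kb. For isolated peaks it was 562 (488 to 699) at 300 to 500 kb and 573 (475 to 688) at 500 kb or more. Isolated peaks therefore had medians between those of the most crowded peaks and those of peaks at intermediate distance, with intervals that overlap those of several classes.

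The 2 width tails changed at different distances. The share of broad peaks was 7.49% (6.50 to 8.59%) under 10 kb and 3.03% (2.30 to 3.91%) at 50 to 100 kb, and it was 3.19% at 300 to 500 kb and 2.82% at 500 kb or more. The share of narrow peaks was 5.99% (5.10 to 6.99%) under 10 kb, 2.66% (1.98 to 3.49%) at 50 to 100 kb and 3.90% (1.96 to 6.87%) at 300 to 500 kb, and 11.3% (7.64 to 15.9%) at 500 kb or more. Scores below 100 were held by 16.5% (12.1 to 21.8%) of the peaks at 500 kb or more, 8.16% (5.24 to 11.99%) at 300 to 500 kb and 14.9% (13.6 to 16.4%) under 10 kb. Weak peaks were thus about as frequent at the most crowded end as among the most remote peaks, and narrow peaks were raised at both ends over those at 10 to 100 kb. Within the isolated peaks, the 248 most remote held 28 of the 39 narrow isolated peaks and 41 of the 64 with scores below 100. Over the isolated peaks alone, Spearman's rho between smaller gap and score was -0.0028, and between smaller gap and width -0.03.

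**Figure D4:**
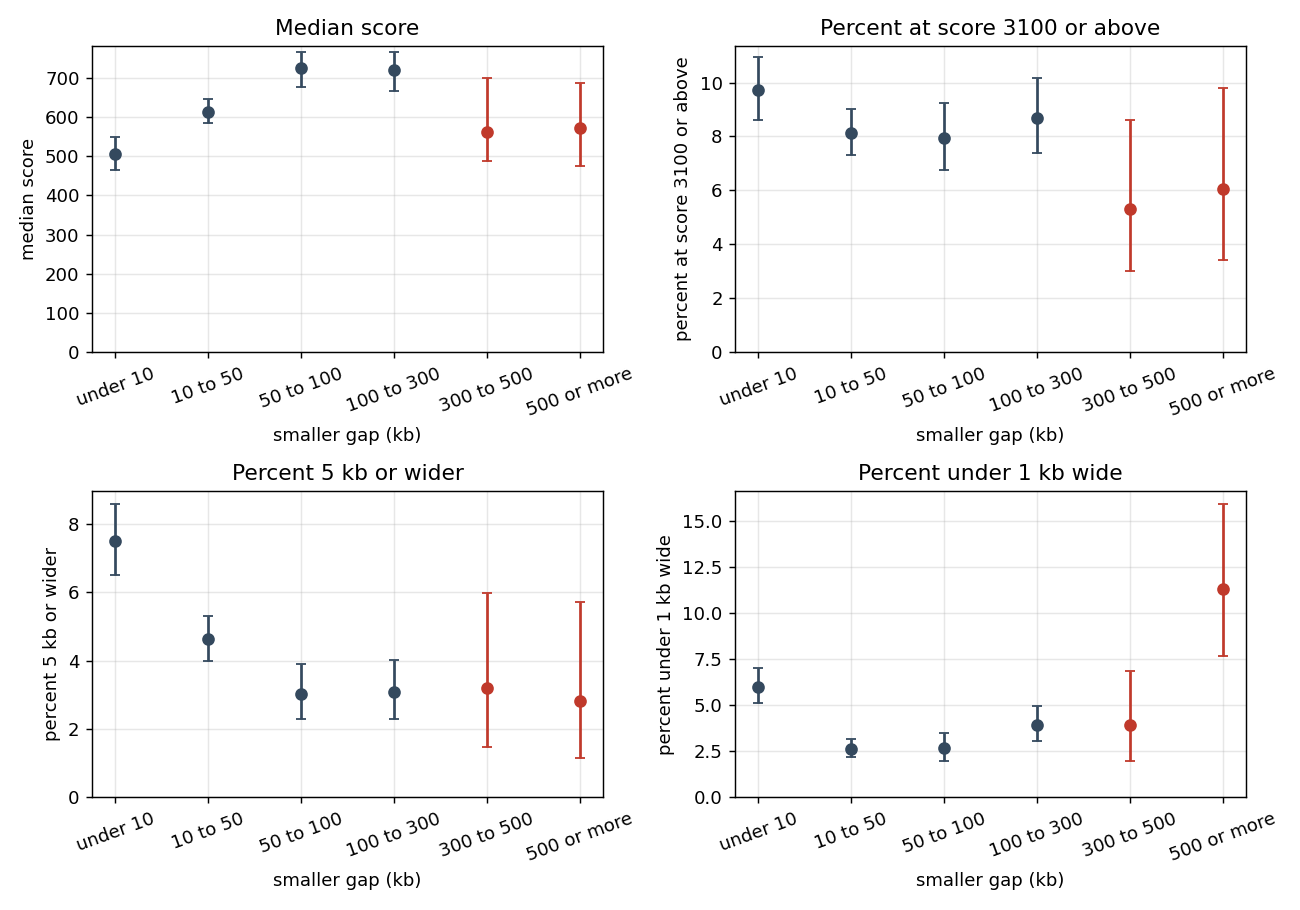
Peaks on the 19 chromosomes are grouped by their smaller gap (x axis, kb), with isolated classes in red. Panels give the median score, the percent at or above 3100, the percent 5 kb or wider and the percent under 1 kb wide, with exact 95% intervals as bars, and the last panel shows the 11.3% of narrow peaks at 500 kb or more.

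The isolated peaks lay on all 19 chromosomes but unevenly. Chromosome 2 held 66, chromosome 7 held 49 and chromosomes 3 and 5 held 47 each. With the 45 on chromosome 1 these made up 254, or 47.9% of the total. As a share of a chromosome's own peaks, isolated peaks were most frequent on chromosomes 5 and 2, with 8.69% (6.45 to 11.4%) and 8.68% (6.78 to 10.9%). They were rarest on chromosome 19, where 3 of 818 peaks were isolated (0.367%, 0.0757 to 1.07%), followed by chromosome 17 with 9 of 741 (1.21%) and chromosome 22 with 5 of 294 (1.70%). This order follows from the rule, since gaps are shorter where peaks are dense: over the 19 chromosomes the isolated share and the number of peaks per Mb had a Spearman's rho of -0.90, a description of points that share their positions. Chromosomes 16, 17, 19 and 22 held 22.4% of all peaks on the 19 chromosomes, 5.47% of the isolated peaks and 36.1% of the crowded ones.

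The 3 isolated peaks of chromosome 19, named because of their small number, were modest in size. The first, from 8803149 to 8804508, scored 328 and stood only 307 kb from its nearer neighbour. The other two followed each other after a stretch of 8.91 Mb without a peak, from 32975412 to 32978219 (score 429) and from 34394152 to 34396455 (score 1084).

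Within single chromosomes, isolated peaks had the lower median width and the lower ceiling share on most chromosomes, whereas the median score went either way. Of the 18 chromosomes with at least 5 peaks in each group, the isolated median width was below the crowded one on 13 and above it on 5. The isolated median score was below on 10 and above on 8, and the isolated share at the ceiling was below on 14 and above on 4. No isolated peak was at the ceiling on 7 of the 19 chromosomes, which hold between 3 and 41 isolated peaks each. With few isolated peaks a share of 0 can easily arise, so the count for the ceiling says little. Chromosomes are not replicates, and most hold few isolated peaks.

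The score medians of the 2 groups lay far apart on some chromosomes, most of which held few isolated peaks. On chromosome 16, 12 isolated peaks had a median score of 180 (94.7 to 436) and 204 crowded peaks one of 721 (535 to 856), so the intervals do not overlap, which was the case on no other of the 17 chromosomes where both medians have an interval. On chromosome 20 the medians were 365 (146 to 738) for 17 isolated and 951 (449 to 1463) for 62 crowded peaks, with overlapping intervals. Chromosome 7, with 49 isolated peaks, had medians of 479 (355 to 693) for these and 781 (591 to 1031) for 133 crowded peaks. Chromosome 17 had 238 (85.3 to 1681) for 9 isolated and 549 (455 to 675) for 261 crowded peaks. The intervals overlap on both. On chromosomes 21 and 22 the isolated medians were the higher ones, 1311 against 330 and 1596 against 560, from 7 and 5 isolated peaks. Chromosome 8 had the highest isolated median width, 3144 bp (2390 to 3631 bp), and its crowded peaks were wide too, at 3690 bp (3435 to 4438 bp). These chromosomes were singled out after their values were seen. Leaving out each chromosome in turn kept the difference in median width between -210 and -116 bp and that in the ceiling share between -4.77 and -3.39 points. The difference in median score then ran from -29.9 to 38.1, so its sign depended on the chromosome left out.

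**Figure D5:**
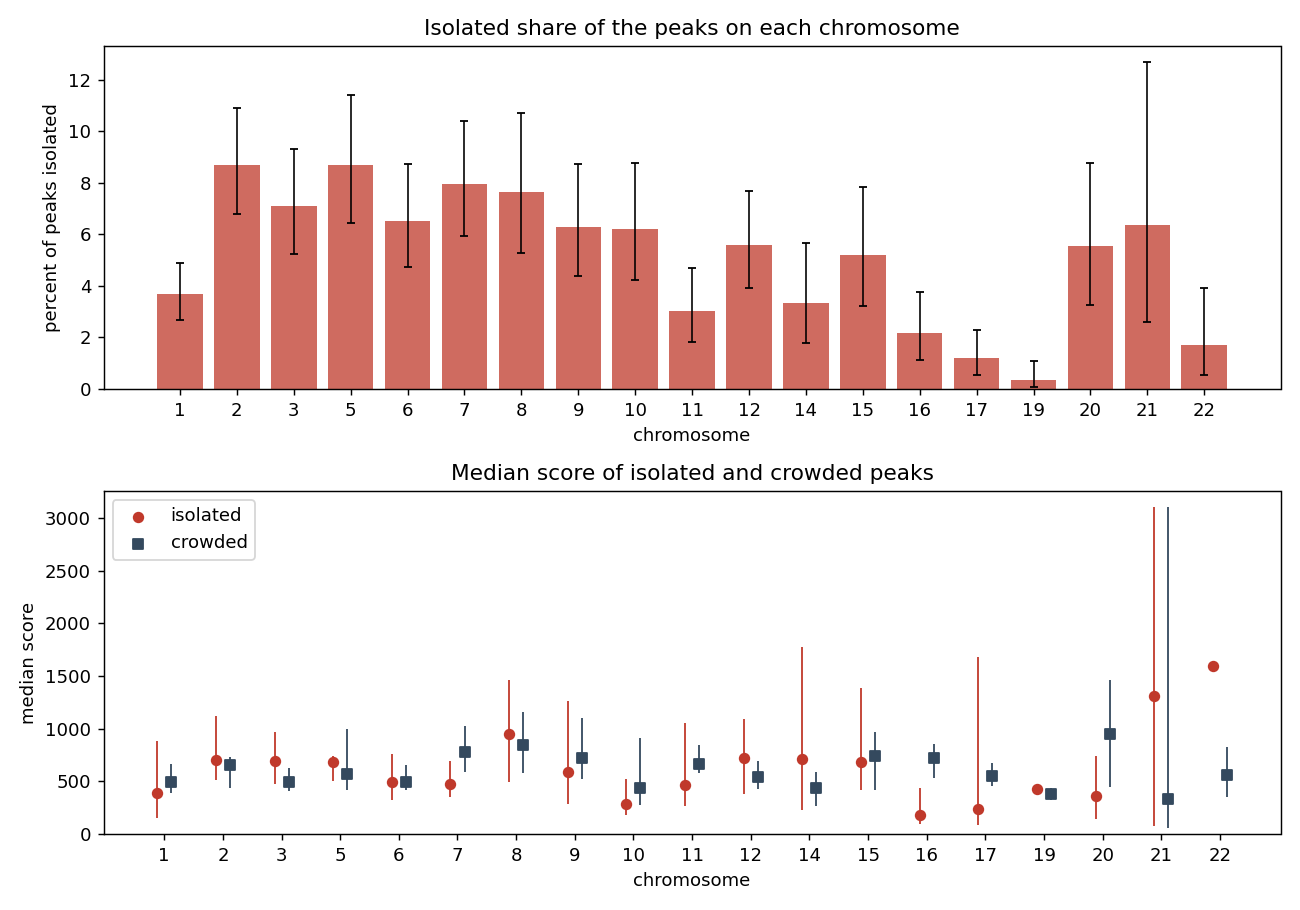
The upper panel gives the percent of each chromosome's peaks that were isolated, with exact 95% intervals, from 0.367% on chromosome 19 to 8.69% on chromosome 5. The lower panel gives the median score of isolated (red circles) and crowded (dark squares) peaks per chromosome, with exact 95% intervals as lines where a group has 6 or more peaks.

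The ends of the chromosomes held a smaller share of the isolated than of the crowded peaks. With each chromosome measured between its outermost peaks, the 10% at either end held 107 isolated peaks (20.2%), 34.8% of the crowded peaks and 26.2% of all peaks. The isolated share was close to the share of the measured span that both ends make up by definition, and the crowded share was above it. The difference between isolated and crowded peaks is tied to the rule, since dense stretches leave no room for isolated peaks. Compared with the next peaks on either side, an isolated peak had the highest score of the 3 in 150 cases and the lowest in 180, and in the other 200 its score lay between them or was tied. Its score had a Spearman's rho of 0.12 with that of the peak to its left and 0.03 with that to its right.

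The strongest isolated peaks were spread over the genome. All positions are in hg18 and counted from 1, and genes at these sites were not assigned because no annotation of that build was used. The highest score, 3142.35, belonged to a peak of 3019 bp on chromosome 11 from 109468060 to 109471078, with its neighbours 1426 kb to the left and 334 kb to the right. It was the only isolated peak above 3100. The other 29 at the ceiling scored exactly 3100 and were ordered by width.

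The 5 widest isolated peaks were all among these. They lay on chromosome 2 from 43299395 to 43308838 (9444 bp), on chromosome 5 from 66334918 to 66344356 (9439 bp), on chromosome 1 from 157245949 to 157255201 (9253 bp), on chromosome 12 from 76857808 to 76865487 (7680 bp) and on chromosome 8 from 126510074 to 126517427 (7354 bp). The peaks on chromosomes 5, 1 and 12 had more than 700 kb free on both sides, and the peak on chromosome 2 had 407 and 367 kb. Broad peaks at the ceiling thus occurred among the isolated peaks, whose distance from other peaks is set by the rule.

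The next by width were 2 peaks of 6405 bp each. The one on chromosome 2, from 192250141 to 192256545, bordered a gap of 3.97 Mb, and the other lay on chromosome 8 from 119188502 to 119194906. They were followed by chromosome 10 from 3812943 to 3819187 (6245 bp) and chromosome 2 from 200027925 to 200034156 (6232 bp). The 30 ceiling peaks lay on 12 chromosomes, 6 of them on chromosome 12, and 15 of the 30 had both gaps at 500 kb or more.

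A few isolated peaks departed from the usual relation of score and width. They were picked after their values were seen. The narrowest at the ceiling, on chromosome 2 from 225156298 to 225158836, reached 3100 with 2539 bp. Of the 16 broad isolated peaks, 2 stayed below the ceiling, one of them on chromosome 3 with a score of 1537 (106566693 to 106571838) and the other on chromosome 9 with 2291 (108662358 to 108667794).

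At the other end, the weakest isolated peaks were close to the caller's lowest value. The lowest score, 50, was that of a 743 bp peak on chromosome 7 from 56822114 to 56822856, beside a gap of 6.06 Mb. The next were a peak of 480 bp on chromosome 5 from 11449948 to 11450427 (50.39), which was also the narrowest, and one of 1240 bp on chromosome 6 from 160860824 to 160862063 (51). Then came a 600 bp peak on chromosome 17 from 29390920 to 29391519 (51.11) and a 1249 bp peak on chromosome 12 from 93019376 to 93020624 (51.42).

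The other narrowest peaks were as weak. They lay on chromosome 7 from 114404498 to 114405012 (515 bp, score 56.4), on chromosome 1 from 209102036 to 209102615 (580 bp, 55.3) and on chromosome 8 from 35502357 to 35502943 (587 bp, 52.6). The peak on chromosome 8 had 1.96 Mb free on its nearer side. The 64 isolated peaks with scores below 100 lay on 15 chromosomes and had a median width of 1024 bp.

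The 5 peaks with the largest smaller gaps were neither the strongest nor the weakest. The largest smaller gap, 3.73 Mb, belonged to a 1245 bp peak on chromosome 5 from 25225814 to 25227058 with a score of 391 and 6.34 Mb free on the other side. A 2082 bp peak on chromosome 2 from 144805098 to 144807179 scored 480, with gaps of 5.83 and 3.51 Mb. Next to each other on chromosome 3, with 2.74 Mb between them, stood a 2864 bp peak from 79148885 to 79151748 (score 966) and a 1799 bp peak from 81892376 to 81894174 (score 275). The fifth was a 1051 bp peak on chromosome 1 from 103840856 to 103841906 with a score of 144. Of the 64 peaks with at least 1 Mb free on both sides, 10 (15.6%) scored below 100 and 8 (12.5%) were under 1 kb wide. Among all peaks on the 19 chromosomes these shares were 10.2% and 3.87%. The 64 had a median score of 525 (356 to 779), 2 of them were at the ceiling, and none was 5 kb or wider. The exact interval of this 0 reaches 5.60%, and 3 counts would be 4.69%.

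Gaps of 3 Mb or more bordered 58 isolated peaks. The longest, 19.6 Mb, lay to the left of a weak peak on chromosome 9 from 66292830 to 66293978 (1149 bp, score 63.0), picked after its value was seen. Without these 58 peaks, the 472 that remained had a median score of 601.5 and 5.93% of them were at the ceiling.

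Peaks just inside the limit were weaker than those just outside in these few cases. The 3 nearest inside, with smaller gaps of 301.1 to 301.5 kb, were on chromosome 5 from 102925330 to 102926755 (1426 bp, score 170), on chromosome 11 from 110674547 to 110676269 (1723 bp, 229) and on chromosome 10 from 5443928 to 5445917 (1990 bp, 237). The 3 nearest outside, with 299.3 to 299.8 kb, were on chromosome 20 from 5538065 to 5540214 (2150 bp, 1027) and on chromosome 8 from 6250297 to 6252898 (2602 bp, 604) and from 6552218 to 6555215 (2998 bp, 1852). The 2 on chromosome 8 share the same gap.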

How the data were processed

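The processed peak list of 1 Brpf2 ChIP-seq library from untreated RKO cells was used. It gives chromosome, start, end, name and a score per peak. The submitters' processing notes list hg18 as the build and BWA, SAMtools and bedtools as tools, with no version or role, and the word MACS is part of each peak name. How the caller was run, and against which control, is not given in the sources used here. Each score is the value deposited by the authors, on an unstated scale. Peak names ran from 1 to 11874 with none missing, no peaks overlapped, and the 2 peaks whose starts lie before position 1 were not isolated.

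Gaps were measured edge to edge over all listed peaks. Medians have exact order-statistic intervals, shares Clopper-Pearson intervals, and differences combine both intervals by the square root of the summed squared distances to the limits. No p-value was computed, since there is 1 library and peaks are not replicates. The named regions are the isolated peaks with the 10 highest scores (ties by width), the 5 widest, the 5 narrowest, the 5 lowest scores, the 5 largest smaller gaps, the 3 on each side of the 300 kb limit and the longest runs. Members, limits and lists were chosen with earlier results of these data known. Alternatives were gap limits of 200 and 500 kb (isolated) or 25 and 100 kb (crowded), a score of at least 100, joining peaks within 1 kb, gaps between midpoints, other chromosome sets, equal weight per chromosome, and leaving out peaks beside gaps of 3 Mb. Weighting crowded peaks to the isolated peaks' widths or chromosomes, and leaving out each chromosome, were chosen after seeing the data. The code was tested on simulated data. Python 3.11.15, pandas 2.3.3, NumPy 2.4.6 and SciPy 1.17.1 were used.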

Additional observations from a re-analysis of the deposited data

How the results depend on the processing

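Of 255 alternative values for 10 results, 241 stayed within the interval of the reported value or, for counts, within 1.5 times of it. Most of the 255 came from leaving out 1 chromosome at a time, which keeps most peaks and leaves little room for change. With these and the weighting of crowded peaks to widths or chromosomes, 156 values stayed within and 1 moved outside. With all other settings 85 stayed within, 11 moved outside and 2 had the opposite sign. A change of sign was counted only where the reported interval excludes 0, so not for the difference in median score. That difference, 10.1 as reported, was -16.5 with crowded gaps below 100 kb, -19.5 with scores of at least 100 and -30.6 with peaks joined. With the rest of these settings it stayed positive. The number of isolated peaks, 530 as reported, was 919 with gaps of 200 kb or more and 248 with 500 kb or more, as the limit itself requires. With peaks scoring below 100 removed before gaps were measured, the isolated medians were 2401.5 bp and a score of 684. On chromosomes 4, 13 and 18 alone, 77 isolated peaks on these 3 chromosomes had medians of 2362 bp and 704. There the difference from crowded peaks was reversed for median width (234.5 bp, interval -526 to 682 bp) and for the share under 1 kb (-0.027 points), and was -0.541 points for the share at or above 3100. The cause was not tested, and 48 crowded peaks there give wide intervals. With crowded peaks weighted to the isolated peaks' width classes, the difference in the share at or above 3100 was -0.739 points. Over 10 alternatives with an interval for the difference, it held 0 in all 10 for median score. It held 0 in 4 for median width (isolated gaps of 200 kb and of 500 kb, chromosomes 4, 13 and 18, and without peaks beside gaps of 3 Mb), in 2 for the share at or above 3100 (500 kb, and chromosomes 4, 13 and 18) and in 1 each for the broad and narrow shares (chromosomes 4, 13 and 18). No paired analysis was possible because there is 1 library. Read depth is not known, and a deeper library could place further weak peaks in the gaps, by a number that cannot be estimated.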

Other observations

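Outside the 19 chromosomes, the same rule gave 36 isolated peaks on chromosome X. They were narrower than the isolated peaks of the autosomes studied, with a median width of 1575 bp (exact 95% interval 1313 to 1931 bp) against 2241.5 bp. Their median score was 259 (140 to 342) against 567, and 1 of the 36 reached 3100. The 60 crowded peaks of chromosome X were low as well, with a median width of 1766 bp (1504 to 2093 bp) and a median score of 255 (162 to 472). On chromosome X, as on the 19 chromosomes, isolated and crowded peaks had medians of score whose intervals overlap.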
